A study of Mus musculus with 6 samples.

Results

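Genes of the motile cilium and of ciliary transport were examined in prefrontal cortex of BTBR mice against C57BL/6J mice. The members are all non-control array probes whose gene name is a Dnah, Dnai, Dnal, Tekt, Rsph, Spag, Bbs or Ift prefix followed by a digit, or is Foxj1, Hydin, Ccdc39 or Ccdc40. This gave 124 probes of 61 gene names, of 41174 probes in all. They were divided by known role into an axonemal class (71 probes of 35 genes), a general ciliary class of Bbs and Ift genes (41 probes of 21 genes), and 5 Spag genes with roles outside the axoneme (12 probes). BTBR mice carried the genotype BTBR T+ Itpr3tf/J, and the controls were wild-type C57BL/6J. For the BTBR samples the label for strain background also reads C57BL/6J, while title and genotype name BTBR. All 6 mice were untreated males of 5 months, 3 per strain, and whole prefrontal cortex RNA of each was read on 1 one-colour Agilent array.

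The axoneme is the microtubule core of a cilium. In motile cilia it carries dynein arms, which make the beat, and radial spokes and a central pair, which regulate it. In the brain, motile cilia stand on the ependymal cells that line the ventricles and move cerebrospinal fluid, and Foxj1 is the transcription factor that switches on their gene programme. Intraflagellar transport (Ift) trains carry cargo along both motile and primary cilia, and the Bbs proteins form or assemble the BBSome, which moves membrane proteins out of cilia. Neurons and glia of the cortex bear a primary cilium, so Ift and Bbs genes are used far beyond the ependyma.

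Signals are given as log2 relative to the 75th percentile of the same array, so 0 is that percentile. Levels of different probes are set against each other only as medians of a class and sums over marker lists. Between 28100 and 30665 probes per array were well above background, and none was saturated. Tests were run on the 30011 probes that cleared background clearly on 3 or more of 6 arrays, whichever strain these came from. Of the members, 89 probes of 55 genes were tested, 38 axonemal, 39 general ciliary and 12 of the other Spag genes. Of the 35 member probes left out, 27 were well above background on 0 arrays, 5 on 1 array and 3 on 2 arrays, and 26 read dynein heavy chains. Dnah3, Dnah10, Dnah11, Dnah12, Dnah14 and Tekt3 had no tested probe. Strains were compared with limma, and a difference is BTBR minus C57BL/6J with its standard error (SE) and a Benjamini-Hochberg adjusted p over all 30011 probes, called below 0.05. In whole tissue, fewer cells of a type and less RNA per cell cannot be told apart. A call is for a probe, and probes of the same gene did not always agree. Whether the BTBR sequence differs under any probe was not tested.

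The axonemal genes moved in both directions, and the general ciliary genes mostly did not pass the test. Of 38 axonemal probes, 9 differed (8 genes, 23.7%), against 5.44% of all tested probes. In BTBR 6 were higher (Dnah6, Dnah8, Rsph1, Tekt4 and both probes of Tekt1) and 3 lower (Foxj1, Rsph10b and Tekt2), where 2.19% of all probes were higher and 3.25% lower. Of 39 general ciliary probes, 1 differed (2.56%), a probe of Ift140, and of 12 probes of the other Spag genes 1 differed (8.33%), a probe of Spag5. The spread of the axonemal differences was wide, with 9 of 38 (23.7%) at 1 log2 unit or more in either direction, Spag16 among them with BTBR readings not well above background, against 1 of 39 (2.56%) in the general ciliary class and 4.63% of all probes. The axonemal probes were also dimmer, with a median level of -3.92, against 0.08 in the general ciliary class and -1.54 over all tested probes. The part of signal level in the spread and in the counts was not tested. The median difference was 0.09 over axonemal probes and 0.13 over general ciliary probes, against 0.04 over all probes, and with normexp background correction the axonemal median was -0.23 against -0.09 over all probes. The arrays lay on 2 slides, each with its own scan, with replicates 1 and 2 of each strain on slide 1 and replicate 3 of each on slide 2, so values within each slide are given beside the called genes.

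**Figure D1:**
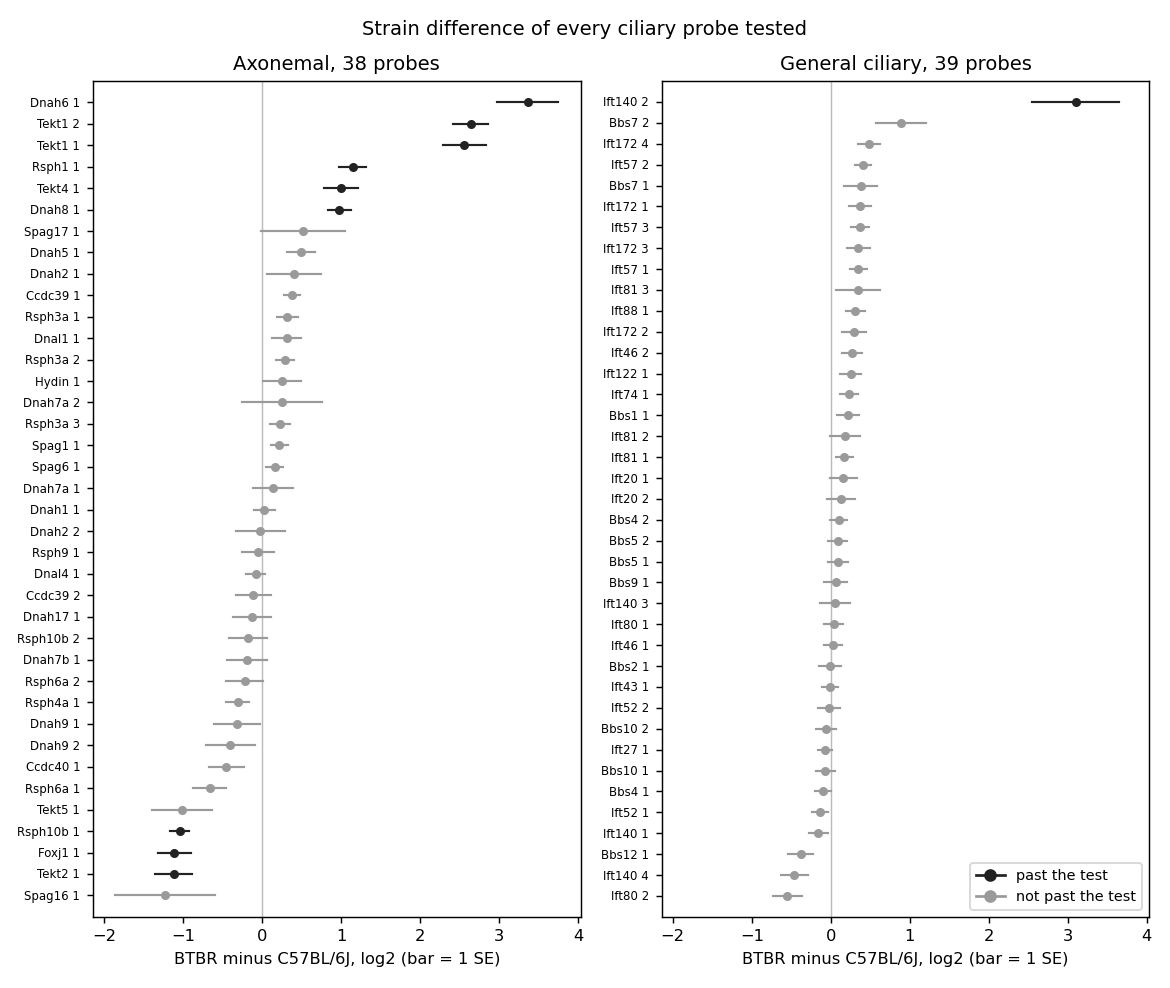
Difference between strains (x axis, BTBR minus C57BL/6J, log2) of each tested probe, with axonemal probes on the left and general ciliary probes on the right, named by gene and probe number. Points are the fitted differences, bars reach 1 SE to each side, and dark symbols passed the test. The 9 axonemal calls stand at both ends of the range, and in the general ciliary panel 36 of 39 probes lie within 0.5 of 0.

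Among the dynein heavy chains, the motor subunits of the dynein arms, 12 of 38 probes were tested, and Dnah6 and Dnah8 were higher in BTBR. Dnah6 encodes a heavy chain of the inner arms. Its called probe read -2.03, -1.96 and -1.73 in the 3 BTBR mice, against -4.53, -5.12 and -6.15 in the 3 C57BL/6J mice. Every BTBR mouse was above every C57BL/6J mouse, and the difference of 3.36 ± 0.39 (SE; adjusted p = 0.0048) is 10.3-fold. Its size depended on the processing, at 1.58 with normexp background correction (adjusted p = 0.647) and 1.12 with the authors' values (0.00205). Within slide 1 it was 2.83, and between the single mice of slide 2 it was 4.42. A second Dnah6 probe was not well above background on any array. It read -7.86, -7.94 and -7.49 in BTBR mice and -8.69, -8.82 and -9.1 in C57BL/6J mice. BTBR was higher there too, but at such signals the probe did not enter the main test. The pair is shown because only 1 of the 2 probes gave a signal well above background. Both are 60 bases long and lie on the minus strand of chromosome 6 in mm9, the called probe at chr6:72972374-72972433 and the dim one at chr6:73085756-73088609, where the longer span means that its bases lie in more than 1 piece of the genome, as in a probe across a splice junction. An mm9 gene annotation was not used here, so exons and UTRs are not given for any probe.
Dnah6 called probe: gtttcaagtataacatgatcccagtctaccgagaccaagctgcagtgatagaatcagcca
Dnah6 dim probe: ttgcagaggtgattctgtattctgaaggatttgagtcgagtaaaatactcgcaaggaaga

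Dnah8, which encodes an outer arm heavy chain best known from sperm, read -3.49, -3.79 and -3.87 in BTBR mice, against -4.54, -4.87 and -4.69 in C57BL/6J mice. The strains did not overlap, and the difference was 0.98 ± 0.15 (SE; adjusted p = 0.014), or 1.97-fold, with 1.06 on slide 1 and 0.81 on slide 2. The other 2 Dnah8 probes were not tested: 1 was well above background on no array and the other in 1 C57BL/6J mouse. The other tested heavy chain probes (Dnah1, Dnah2, Dnah5, Dnah7a, Dnah7b, Dnah9 and Dnah17) lay between -0.40 and 0.49, and none passed. Dnah5, an outer arm heavy chain needed for ciliary beating, had the smallest p of these. It read -3.38, -3.47 and -3.84 in BTBR mice and -3.85, -3.99 and -4.33 in C57BL/6J mice, a difference of 0.49 ± 0.18 (SE; adjusted p = 0.241), which was -0.05 with normexp. The lowest BTBR mouse stood just above the highest C57BL/6J mouse. The light chains Dnal1 (0.31 ± 0.18) and Dnal4 (-0.08 ± 0.12) did not pass.

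Tektins are filament proteins that run inside the doublet microtubules of axonemes. Tekt1 was higher in BTBR on both its probes, Tekt4 was higher and Tekt2 was lower. The first Tekt1 probe read 0.84, 0.77 and 1.31 in BTBR mice, against -1.05, -1.82 and -1.89 in C57BL/6J mice. The second read -0.90, -1.03 and -0.46 in BTBR mice, against -3.05, -3.64 and -3.62 in C57BL/6J mice. On each probe the strains stood far apart, and the differences were nearly the same, 2.56 ± 0.27 (SE; adjusted p = 0.00323) and 2.64 ± 0.22 (adjusted p = 0.00132), which are 5.90-fold and 6.23-fold. On slide 1 they were 2.24 and 2.38, and on slide 2 they were 3.21 and 3.15. The second probe is shown because it lies elsewhere in the transcript from the first and gave the same reading; it is at chr11:72159255-72165359 in mm9, minus strand, in more than 1 piece, and the first is at chr11:72158224-72158282.
Tekt1 second probe: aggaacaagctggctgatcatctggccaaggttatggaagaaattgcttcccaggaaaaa

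Tekt4 read -1.15, -0.88 and -1.69 in BTBR mice, against -2.25, -2.26 and -2.19 in C57BL/6J mice. The C57BL/6J mice were nearly equal and all below the BTBR mice, with a difference of 1.0 ± 0.21 (SE; adjusted p = 0.0477), 1.24 on slide 1 and 0.50 on slide 2. Tekt2 went the other way, with -3.42, -3.05 and -3.65 in BTBR mice, against -2.26, -2.61 and -1.89 in C57BL/6J mice. All BTBR mice were lower, and the difference was -1.12 ± 0.23 (SE; adjusted p = 0.0454), with -0.80 on slide 1 and -1.76 on slide 2. Tekt5, a tektin known from sperm flagella, read -2.02, -1.83 and -1.74 in BTBR mice and -1.38, -1.25 and 0.08 in C57BL/6J mice. C57BL/6J 3 was well above its strain mates there, and the difference of -1.01 ± 0.38 (SE) did not pass (adjusted p = 0.255).

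**Figure D2:**
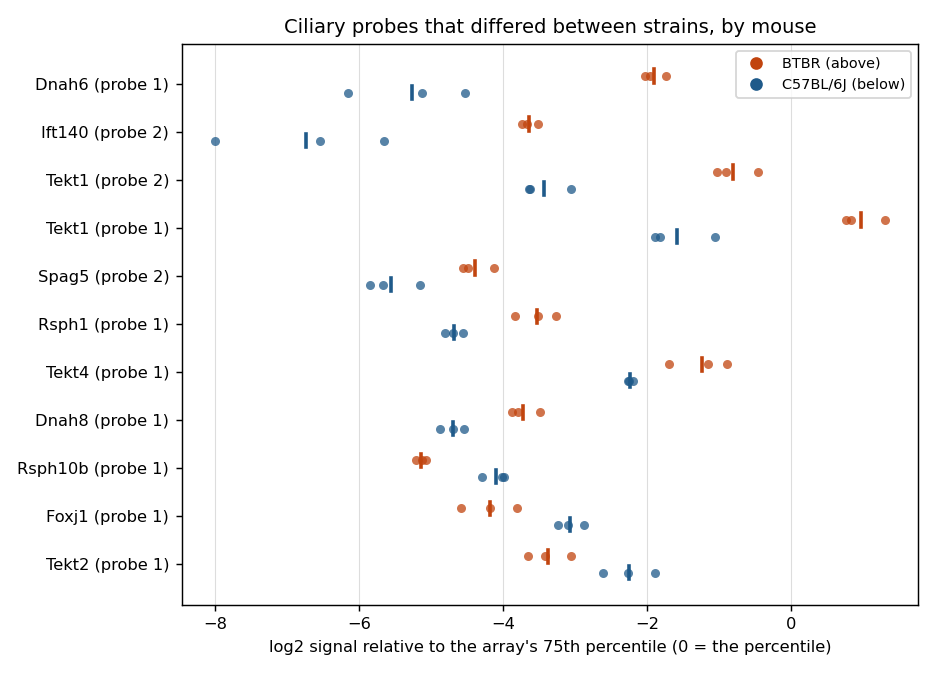
Level of each of the 11 called member probes in each mouse (x axis, log2 signal relative to the array's 75th percentile), ordered by the difference between strains, with BTBR mice in the upper row of each probe and C57BL/6J mice in the lower. Points are mice and vertical ticks are means of 3; the strains do not overlap on any of the 11 probes, and the largest gap is on the Dnah6 probe.

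Radial spokes reach from the outer doublets to the central pair. Rsph1, a spoke head subunit, was higher in BTBR, with -3.51, -3.26 and -3.83 in BTBR mice, against -4.55, -4.70 and -4.80 in C57BL/6J mice. The strains did not overlap, and the difference was 1.15 ± 0.17 (SE; adjusted p = 0.0125), or 2.22-fold, with 1.24 on slide 1 and 0.97 on slide 2. Rsph10b, another gene named for the spoke head, was lower on 1 of its 2 probes. That probe read -5.13, -5.21 and -5.07 in BTBR mice, against -3.98, -4.01 and -4.29 in C57BL/6J mice, a difference of -1.04 ± 0.12 (SE; adjusted p = 0.00561), with -1.17 on slide 1 and -0.78 on slide 2. The BTBR mice were nearly equal and all lower. The other Rsph10b probe read -5.09, -4.54 and -5.07 in BTBR mice and -4.33, -5.05 and -4.78 in C57BL/6J mice, so that the strains overlapped (-0.18 ± 0.24 SE; adjusted p = 0.792). The pair is shown because the 2 probes differ in outcome. The called probe is at chr5:144724802-144727394 and the other at chr5:144699798-144699857, both on the plus strand of mm9, and the Rsph1 probe is at chr17:31410354-31410515, minus strand.
Rsph1: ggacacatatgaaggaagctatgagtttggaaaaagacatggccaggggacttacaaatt
Rsph10b called probe: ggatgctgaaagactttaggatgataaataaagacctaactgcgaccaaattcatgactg
Rsph10b other probe: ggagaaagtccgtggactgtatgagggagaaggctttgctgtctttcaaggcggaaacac

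The remaining spoke genes did not pass. Rsph6a, a spoke head gene known from sperm, had -4.38, -4.93 and -4.95 in BTBR mice and -4.02, -4.37 and -3.89 in C57BL/6J mice. All BTBR mice were lower, by a narrow margin between BTBR 1 and C57BL/6J 2, and the difference was -0.66 ± 0.21 (SE; adjusted p = 0.16). Rsph3a, a spoke stalk gene, read on its first probe 4.02, 4.12 and 3.81 in BTBR mice and 3.74, 3.73 and 3.52 in C57BL/6J mice, a difference of 0.32 ± 0.13 (SE; adjusted p = 0.287). Its 3 probes gave 0.23 to 0.32. Rsph4a gave -0.31 ± 0.15 and Rsph9 -0.05 ± 0.20.

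Foxj1 was lower in BTBR, with -4.58, -4.18 and -3.80 in BTBR mice, against -2.88, -3.23 and -3.10 in C57BL/6J mice. No BTBR mouse reached the lowest C57BL/6J mouse, and the difference was -1.11 ± 0.21 (SE; adjusted p = 0.0361), or 2.16-fold, with -1.32 on slide 1 and -0.70 on slide 2. The member genes of the central pair and of the doublet ruler did not pass. Ccdc39 and Ccdc40 encode the coiled coils that set the spacing of dynein arms and spokes. Ccdc39 read -3.05, -3.02 and -3.10 in BTBR mice and -3.49, -3.42 and -3.39 in C57BL/6J mice. The mice of each strain were close together and the strains apart, at 0.38 ± 0.10 (SE; adjusted p = 0.0903), but its second probe overlapped at -0.11 ± 0.22. Ccdc40 had -4.45, -4.27 and -4.71 in BTBR mice and -4.47, -3.88 and -3.74 in C57BL/6J mice, which overlapped (-0.45 ± 0.22 SE; adjusted p = 0.391). Hydin, a large central pair protein, had -4.67, -4.31 and -5.01 in BTBR mice and -4.64, -4.79 and -5.29 in C57BL/6J mice, also overlapping (0.25 ± 0.24 SE; adjusted p = 0.706). With normexp, Ccdc39 was -0.05 and Hydin -0.24. Of the axonemal Spag genes, Spag1, which serves dynein arm assembly, gave 0.22, and the central pair genes Spag6 and Spag17 gave 0.16 and 0.52. None of these passed. The Spag6 probe matches Spag6l by accession. Spag16, also of the central pair, was not well above background in any BTBR mouse and was in all 3 C57BL/6J mice, so it was tested through C57BL/6J alone. Its readings overlapped, with BTBR 2 (-5.79) above C57BL/6J 2 (-6.11) and C57BL/6J 3 (-5.98), and it did not pass (adjusted p = 0.41).

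In the general ciliary class, Ift140 was the gene with a called probe. It encodes a subunit of the complex that drives return transport to the ciliary base. The called probe read -3.67, -3.51 and -3.74 in BTBR mice, against -5.66, -6.55 and -8.00 in C57BL/6J mice, where it was well above background in 1 mouse of 3, so the probe was tested through BTBR, the strain in which it was high. The fitted difference was 3.1 ± 0.55 (SE; adjusted p = 0.0255), but C57BL/6J 3 lay below the dimmest signal well above background on its array (-6.91). With readings not well above background counted no lower than that limit of their array, the difference was 2.74, with 2.52 on slide 1 and 3.17 on slide 2. The size depended on the processing: the limma difference of this probe was 0.48 with normexp background correction (adjusted p = 0.962) and 0.39 with the authors' values (0.0126). Ift140 probe 1 read 0.93, 0.64 and 0.90 in BTBR mice and 0.96, 0.94 and 1.04 in C57BL/6J mice, a difference of -0.16 ± 0.12 (SE; adjusted p = 0.612). The other 2 probes gave 0.05 and -0.46, so the probes of this gene disagreed and 1 of 4 was higher in BTBR. The 4 lie on the plus strand of chromosome 17 in mm9, the called one at chr17:25233457-25233516 and probe 1 at chr17:25236228-25236287. Probes 3 and 4, at chr17:25172684-25172743 and chr17:25182557-25185393, are shown as the ones that read the gene far from that end.
Ift140 probe 3: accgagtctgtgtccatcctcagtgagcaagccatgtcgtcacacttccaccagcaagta
Ift140 probe 4: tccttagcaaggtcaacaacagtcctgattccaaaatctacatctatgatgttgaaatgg

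The outward-transport (complex B) genes Ift57 and Ift172 gave small differences above 0 on every probe, none past the test, though with normexp 1 of the 4 Ift172 probes was below 0 and with the authors' values 2 of the 3 Ift57 probes passed (adjusted p = 0.00692 and 0.0386). Ift57 read 2.89, 2.90 and 2.72 in BTBR mice and 2.60, 2.44 and 2.40 in C57BL/6J mice, and its 3 probes gave 0.35, 0.41 and 0.37 (adjusted p = 0.175, 0.0735 and 0.137). Ift172 read 3.21, 3.25 and 3.37 in BTBR mice and 3.15, 2.78 and 2.80 in C57BL/6J mice, and its 4 probes gave 0.29 to 0.48 (adjusted p = 0.128 to 0.41). On all 7 probes the strains did not overlap. Ift88, of the same complex, had -1.22, -1.37 and -1.27 in BTBR mice and -1.71, -1.43 and -1.65 in C57BL/6J mice, a non-overlapping difference of 0.31 ± 0.12 (SE; adjusted p = 0.256). Ift27, a small GTPase of the trains, read 3.71, 3.72 and 3.69 in BTBR mice and 3.79, 3.77 and 3.76 in C57BL/6J mice, a difference of -0.07 ± 0.09 (SE; adjusted p = 0.799). The remaining Ift probes ran from -0.55 to 0.34, and none passed.

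Of 12 Bbs probes 0 passed in limma (1 at an unadjusted p below 0.05, where 16.8% of all tested probes were). Bbs12, a chaperonin-like protein for BBSome assembly, had -3.27, -3.25 and -3.23 in BTBR mice and -3.11, -2.96 and -2.54 in C57BL/6J mice. The BTBR mice were nearly equal and all lower, at -0.38 ± 0.16 (SE; adjusted p = 0.304). The other Bbs probes ran from -0.10 to 0.89, the highest being the dim second probe of Bbs7, a BBSome subunit (0.89 ± 0.32 SE; adjusted p = 0.22). Across the general ciliary class, values of the strains did not overlap on 20 of 39 probes (51.3%), against 18 of 38 (47.4%) in the axonemal class and 22.8% of all tested probes. An unadjusted limma p below 0.05 was found for 11 of 39 general ciliary probes and 15 of 38 axonemal probes. Among the 11 were 3 probes of Ift57 and 3 of Ift172.

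Among the other Spag genes, Spag5, a mitotic spindle protein, was higher in BTBR on 1 of 2 probes. The called probe read -4.49, -4.55 and -4.12 in BTBR mice, against -5.16, -5.67 and -5.85 in C57BL/6J mice. All BTBR mice were higher, by 1.17 ± 0.21 (SE; adjusted p = 0.0296), with 0.89 on slide 1 and 1.72 on slide 2. The other probe did not overlap either but did not pass, at 0.85 ± 0.26 (SE; adjusted p = 0.153). Spag4, Spag7, Spag9 and Spag11a gave -0.08 to 0.66 over 10 probes, none past the test.

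**Figure D3:**
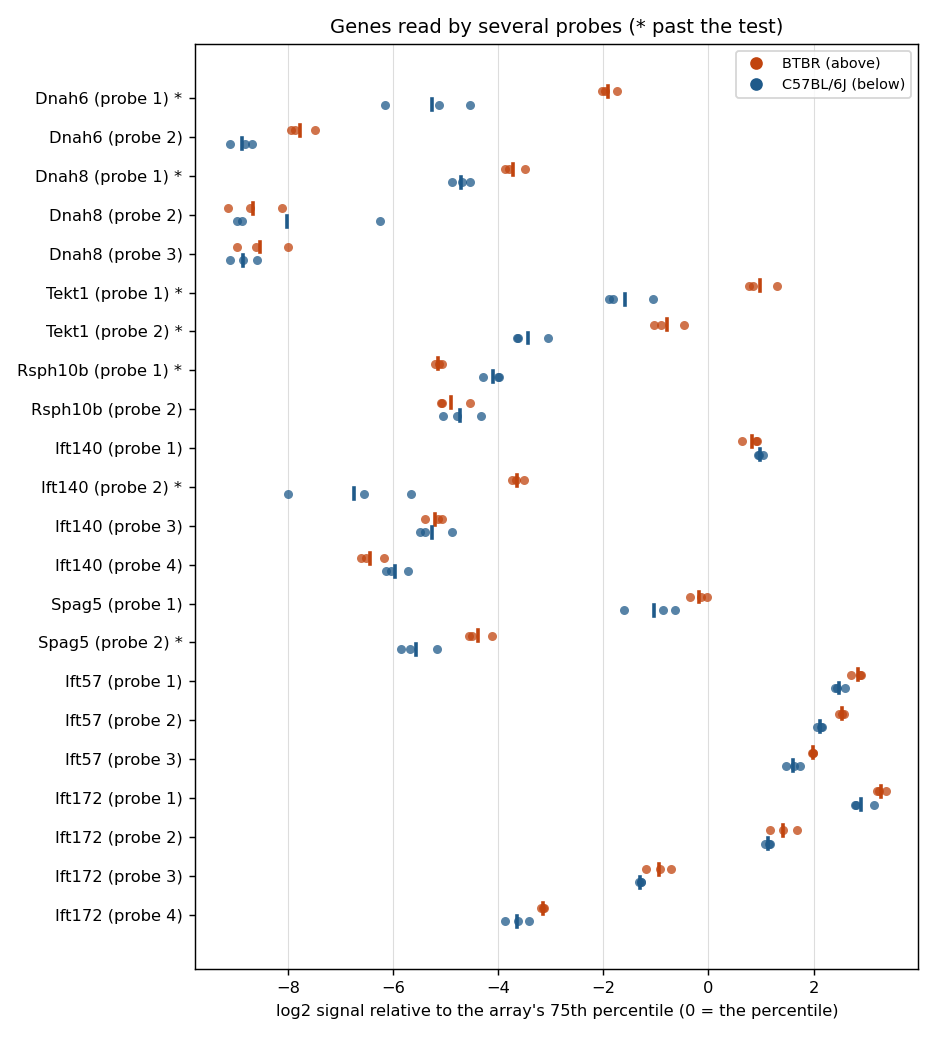
Levels in each mouse (x axis, log2 signal relative to the array's 75th percentile) on every probe of 8 member genes read by several probes, BTBR above C57BL/6J, with an asterisk on called probes and vertical ticks at the means of 3. The Tekt1 probes part the strains alike, the Ift140 and Rsph10b probes do not, and Dnah6 probe 2 and Dnah8 probes 2 and 3 lie at signals not well above background, apart from 1 C57BL/6J mouse on Dnah8 probe 2.

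How far these calls stand depended on the background correction. With normexp on the mean spot signal in place of the scanner's processed signal, limma called 0 of 38 axonemal, 0 of 39 general ciliary and 0 of 12 other Spag probes (7, 5 and 2 at an unadjusted p below 0.05), and 170 of all probes (0.566%). Of all 30011 probes, 1899 had an unadjusted limma p below 0.05 with normexp. The 11 called probes had the same sign there. Tekt1 came nearest on its first probe, at 2.32 (adjusted p = 0.0637), with 1.73 on its second (0.286), and Dnah6 was at 1.58 (0.647). Rsph1 (0.17), Dnah8 (0.09) and Spag5 (0.09) were close to 0 (adjusted p = 0.962, 0.972 and 0.974), and Ift140 was at 0.48 (0.962). Tekt4 was at 0.71 (0.729), Foxj1 at -0.77 (0.922), Tekt2 at -0.86 (0.546) and Rsph10b at -0.63 (0.962).

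Leaving out 1 mouse at a time, the calls of Dnah6, Rsph10b and both Tekt1 probes held in every case. The Dnah8 call was lost without BTBR 1 (adjusted p = 0.0578) or C57BL/6J 2 (0.0632), and the Rsph1 call without BTBR 1 (0.0639) or C57BL/6J 2 (0.0611). The calls of Tekt4 and Foxj1 held only without BTBR 3 and otherwise had adjusted p-values of 0.102 to 0.181 and 0.0869 to 0.13. The Tekt2 call was lost whichever mouse was left out (0.0538 to 0.166). The Ift140 call held only without C57BL/6J 1 or C57BL/6J 3 and was at 0.061 to 0.0934 otherwise, and the Spag5 call held only without C57BL/6J 1 and was at 0.0684 to 0.121 otherwise. The axonemal count, 9 with all mice, was 4 to 8, with 4 without BTBR 1 and 4 without C57BL/6J 2.

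Over 20 alternatives with a test, the call held in 19 for Dnah6 and for the first Tekt1 probe, 18 for Rsph10b, 17 for Rsph1, 16 for Dnah8, 11 for Tekt4, 10 for Foxj1 and 9 for Tekt2. It held in 18 of 19 for the second Tekt1 probe, 12 of 18 for Ift140 and 7 of 19 for Spag5. Beside normexp and single mice left out, the Foxj1 call was lost with quantile normalization (adjusted p = 0.0591) and the authors' values (0.0814). With the authors' values the Dnah8 (0.0747), Rsph10b (0.0818) and Spag5 (0.175) calls were lost too. With the slide as a block, Tekt2 (0.074) and Spag5 (0.0523) did not pass, nor within slide 1 (0.0933 and 0.0764). Without the filter on dim probes, Foxj1 (0.0757), Tekt2 (0.0925), Tekt4 (0.0972), Ift140 (0.0543) and Spag5 (0.0639) did not.

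The called axonemal genes were set beside markers of the cell types that the tissue could hold. Ependymal markers, which include Foxj1, had a difference below 0 in all 10 cases (median -0.59), where 42.8% of all probes did. The same 10 of 10 were found with normexp, quantile or median scaling and with the authors' values, with medians of -0.63 to -0.23. Of the 10, 2 passed, Foxj1, itself a member, and Tm4sf1, a membrane protein gene (-0.70 ± 0.10 SE; adjusted p = 0.0121). Whether Tm4sf1 is read from ependyma alone in this tissue was not tested. The Tm4sf1 call was lost with normexp (0.184) and without BTBR 1, C57BL/6J 1 or C57BL/6J 2 (0.0805, 0.0555 and 0.0515). The summed linear level of the list was 4.09 to 4.78 in BTBR mice, against 6.32 to 7.29 in C57BL/6J mice. Tm4sf1 and Rarres2 made up 74.2% to 87.0% of that sum, and the sum of the other 8 markers overlapped, with 0.736 to 1.21 in BTBR mice and 0.822 to 1.88 in C57BL/6J mice. Choroid plexus markers had a median of -0.84, with 0 of 9 past the test, and sums of 0.521 to 2.06 in BTBR mice, against 0.548 to 9.95 in C57BL/6J mice, the highest in C57BL/6J 1. Striatal markers had a median of -1.0, with 0 of 10 past the test, and sums of 16.7 to 64.9 in BTBR mice, against 28.6 to 229 in C57BL/6J mice, the highest in C57BL/6J 3. No marker of these 3 lists on the array was below background in all 6 mice, so none of them could be taken as absent. For these and the further marker lists with 0 genes past the test in limma, the count at an unadjusted p below 0.05 was 2 for meningeal fibroblasts and 0 for choroid plexus, striatum, neuroblasts and cortical neurons. The share over all tested probes was 16.8%. The part of these cell types in the axonemal differences was not tested. Over all axonemal probes, the median deviation from each probe's mean was 0.09, 0.17 and -0.16 in BTBR mice and -0.03, -0.02 and -0.14 in C57BL/6J mice, which overlap, and for the ependymal markers it was -0.60, -0.23 and 0.00 in BTBR mice and 0.68, 0.31 and -0.07 in C57BL/6J mice.

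Of the other markers, neuroblast genes had a median of 0.47 with 0 of 8 past the test. Meningeal fibroblast genes had a median of -0.29 with 0 of 9, and genes of cortical neurons, which mark the labelled tissue, had 0.15 with 0 of 9 and were well above background in all 6 mice. Oligodendrocyte genes had a difference below 0 in all 6 cases (median -0.58), with Mag (-0.93 ± 0.15 SE; adjusted p = 0.0171) and Opalin (-0.90 ± 0.16; 0.0255), both myelin genes, past the test. Of 5 astrocyte genes (median -0.04), Gfap, an intermediate filament, was lower on 1 of 3 probes (-1.21 ± 0.19 SE; adjusted p = 0.0153), and its other probes gave -0.57 and -0.46 (0.155 and 0.342). Second probes of Mag (-0.86; 0.0296), Mobp (-1.83; 0.0109) and Mog (-0.90; 0.0059), all myelin genes, were also lower. The Mobp probe that stood for the gene gave -0.03 (adjusted p = 0.949), so the Mobp probes disagreed in size. The further Mbp probes gave -0.44 and 0.47 (0.435 and 0.134), on either side of 0. With normexp the first probes of Mag, Opalin and Gfap did not pass (0.281, 0.155 and 0.132). The called second probes of Mag, Mobp and Mog did not either (0.37, 0.0728 and 0.962). Single mice left out gave 0.0244 to 0.0801 for Mag, 0.0391 to 0.115 for Opalin and 0.0127 to 0.0741 for Gfap.

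**Figure D4:**
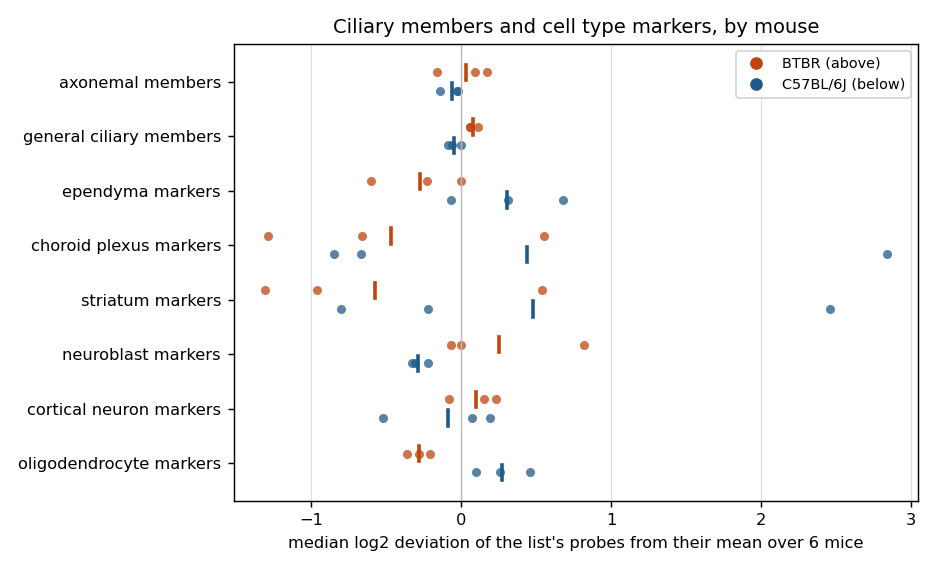
Median log2 deviation of the probes of each list from their mean over 6 mice (x axis), for both member classes and 6 lists of cell type markers, BTBR above C57BL/6J, with ticks at the means of 3 mice. The axonemal values overlap between strains, the ependymal values overlap only between BTBR 3 and C57BL/6J 3, and the choroid plexus and striatal values are highest in C57BL/6J 1 (2.84) and C57BL/6J 3 (2.46).

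Genes that work with the members were counted over lists of further ciliary genes. Each list is read against 2.19% of all tested probes higher and 3.25% lower in BTBR (5.44% together). Of 52 other structural genes of motile cilia 1 rose and 2 fell (median -0.04; -0.20 with normexp). Pifo, Dynlrb2 and Enkur stand in this list and among the ependymal markers, so these lists are not separate, and Dnali1 also comes under a wider reading of the member rule. Mns1, a protein inside the doublets, was higher in BTBR (1.07 ± 0.15 SE; adjusted p = 0.00979), with -0.58, -0.45 and -0.89 in BTBR mice against -1.79, -1.77 and -1.59 in C57BL/6J mice. Cfap69, a central pair protein, was lower (-1.33 ± 0.13 SE; adjusted p = 0.00249), with -1.0, -0.93 and -1.24 in BTBR mice against 0.41, 0.16 and 0.26 in C57BL/6J mice. Cfap45, another protein inside the doublets, was lower too (-0.92 ± 0.14 SE; adjusted p = 0.0159). The strains did not overlap on any of these. The Cfap69 call held in 20 of 20 alternatives, normexp among them (-1.24; adjusted p = 0.0381). Mns1 and Cfap45 did not pass with normexp (0.305 and 0.286), without BTBR 1 (0.0552 and 0.0836) or without C57BL/6J 2 (0.0519 and 0.0677).

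Of 14 dynein arm assembly genes 1 rose, Cfap300 (0.68 ± 0.10 SE; adjusted p = 0.0109), and Zmynd10 stood just short of the test (0.85 ± 0.19; 0.0551). Of 11 regulators of multiciliation 1 fell, Cep63, a centriole duplication gene (-0.99 ± 0.10 SE; adjusted p = 0.0033), whose second probe also passed (-0.75; 0.0224), though not with normexp (0.185). Of 23 partners and motors of intraflagellar transport 0 passed in limma (2 at an unadjusted p below 0.05, where 16.8% of all tested probes were) on the probe that stood for each gene, and their median was 0.10. A second probe of Kif3b, a subunit of the motor of outward transport, was far lower in BTBR, with -2.74, -2.82 and -2.59 in BTBR mice against -0.37, -0.48 and -0.44 in C57BL/6J mice. The mice of each strain were close together and the strains far apart, at -2.29 ± 0.11 (SE; adjusted p = 0.000146), and the call held in 19 of 19 alternatives, normexp among them (-1.87; 0.00642). The Kif3b probe that stood for the gene gave 0.26 ± 0.11 (adjusted p = 0.303), so the 2 probes of Kif3b disagreed in sign. Of 16 partners of the BBSome, with a median of 0.00, 1 fell: Ttc8, itself a BBSome subunit, read -3.49, -2.70 and -4.87 in BTBR mice against -0.97, -0.47 and -0.75 in C57BL/6J mice. This difference of -2.95 ± 0.52 (SE; adjusted p = 0.0255) is 7.71-fold, and no BTBR mouse came near the C57BL/6J range. Of 38 genes of the transition zone and primary cilium 2 rose, B9d1, a transition zone protein (0.77 ± 0.12 SE; adjusted p = 0.0185), and Gpr161, a ciliary receptor that restrains Hedgehog signalling (0.86 ± 0.16; 0.0311). Apart from Kif3b, these 5 genes kept their sign with normexp and did not pass: Cep63 had an adjusted p of 0.0697, B9d1 of 0.097, Ttc8 of 0.109, and Cfap300 and Gpr161 of 0.962. The Cep63 call held with any single mouse left out (0.0134 to 0.0263). Cfap300 was lost without BTBR 1 (0.0775) or C57BL/6J 2 (0.0544). B9d1 was lost without BTBR 1 (0.077), BTBR 2 (0.0673) or C57BL/6J 2 (0.0871). Ttc8 was lost without BTBR 1 (0.0836) or any 1 of the C57BL/6J mice (0.0755 to 0.105). Gpr161 held only without BTBR 3 and was at 0.0777 to 0.124 otherwise.

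By mm9 position, 4 of the 8 higher probes lay on chromosome 17, those of Dnah8, Rsph1, Tekt4 and Ift140, among 11 tested member probes of 6 genes there. Of all tested probes placed on chromosome 17, 2.42% were higher in BTBR (33 of 1361). The Ift140 probe was tested through BTBR, the strain in which it was high, and the other probes of that gene were not called. Chromosome 17 was singled out after its values were seen.

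Promoters were read from RefSeq (GRCm38.p6), with 250 bases before and 50 after each start, for the 51 of 61 member genes in its table, with Spag6 read as Spag6l, the gene its tested probe matches. Rfx factors are known regulators of ciliary genes. The core letters to which Rfx factors bind, GTTGCC on either strand, were present in 17 of 51 (33.3%), against 14.1% of all 27025 genes. The letters were present in 9 of 29 axonemal (31.0%), 8 of 18 general ciliary (44.4%) and 0 of 4 other Spag genes. Of the 7 genes with a called probe that were matched, 4 had them (Tekt1, Tekt2, Tekt4 and Ift140). Ift140 counts there by its probe tested through BTBR. The longer X-box (both strands) occurred in 1 of 51, Bbs7, where it overlaps the core letters, against 0.529% of all genes. The forkhead letters GTAAACA (both strands), to which Foxj1-type factors bind, occurred in 2 of 51 (3.92%), against 4.05%. Such matches are letters in a window, not sites. The promoters of Tekt1 and Tekt2 are shown because each holds the core letters 2 times before a start, while Tekt1 was higher and Tekt2 lower in BTBR. Capitals mark the core letters or their reverse complement, and both windows are on the minus strand of GRCm38.p6, Tekt1 at chr11:72361883-72362132 and Tekt2 at chr4:126325689-126325938.
Tekt1 promoter: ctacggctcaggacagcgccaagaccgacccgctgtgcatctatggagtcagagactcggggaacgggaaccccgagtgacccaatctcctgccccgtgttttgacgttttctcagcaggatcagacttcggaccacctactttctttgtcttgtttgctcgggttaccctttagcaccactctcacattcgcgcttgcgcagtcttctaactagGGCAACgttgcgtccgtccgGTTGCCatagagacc
Tekt2 promoter: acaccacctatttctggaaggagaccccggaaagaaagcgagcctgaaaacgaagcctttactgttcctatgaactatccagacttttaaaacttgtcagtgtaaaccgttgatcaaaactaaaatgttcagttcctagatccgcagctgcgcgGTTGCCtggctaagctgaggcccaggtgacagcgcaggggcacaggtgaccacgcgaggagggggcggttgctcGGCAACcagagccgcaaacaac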

How the data were processed

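Prefrontal cortex RNA of 6 mice was labelled with Cy3 from 0.5 µg, 1 array per mouse, with an RNA integrity number of 9 per the labels. The deposited scanner files hold spot intensity on a linear scale, from which the scanner software had subtracted background. Per the file headers this was Agilent Feature Extraction 10.7.3.1, while version 9.1 is named in the submitters' processing notes. The authors' deposited matrix holds log2 values whose scaling and centring are not stated (medians 8.82 to 8.83). It correlated at 0.957 to 0.964 with log2 of the scanner signal over tested probes, its strain differences had a slope of 0.549 on those used here, and it served as an alternative.

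From the log2 processed signal the array's own 75th percentile was subtracted. Control spots were dropped, as were outlier-flagged spots (54 to 107 on an array) of probes with a further spot, and replicate spots were averaged. Strains were compared at the level of probes with limma 3.58.1 (lmFit, eBayes) in R 4.3.3 (data handled with data.table, release 1.17.8). Probe positions are mm9, per the file headers. The fit was tested on simulated data with the spread of the real probes. It found 4.4% of 1.5-fold, 40.8% of 2-fold, 78.4% of 4-fold and 92.8% of 8-fold changes. Of the calls made there, 4.59% were unchanged probes. The number of arrays limits the precision. Genes in the lists were represented by their brightest tested probe and named through RefSeq accessions (27816 probes), symbols (5503), synonyms (380) or the files' own names (7475).

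The named genes are every called gene, Foxj1, Hydin, Ccdc39, Ccdc40, and per class the 4 with the smallest p not past the test and the one whose probe had the highest mean signal; Bbs7, the light chains and other genes given by range or value come from the account of every member. Members and lists were chosen with earlier results of these data known. Same-numbered mice did not deviate together (correlations 0.03, -0.17 and -0.08), so mice were not paired. Alternatives changed the background correction, normalization, filter, probe choice, weights, slide and replicate blocks, and mice left out.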

Additional observations from a re-analysis of the deposited data

How the results depend on the processing

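The 11 called member probes kept their direction under every alternative run (227 of 227 values), and the axonemal count stayed at 6 to 11 in all alternatives except normexp and single mice left out. In those alternatives 2.78% to 13.1% of all probes were called. With normexp and limma the counts were 0 axonemal, 0 general ciliary, 0 other Spag and 170 of all probes, with medians of -0.23 (axonemal) and 0.06 (general ciliary), and the cause was not tested. With no filter on dim probes all 71 axonemal probes were tested, those left out of the main test among them. Of these 7 were called (6 higher, 1 lower), where 2.78% of all probes were. The general ciliary and other Spag counts were 0 and 0 there and the axonemal median 0.23. With only probes well above background on all 6 arrays the general ciliary count was 0, since the Ift140 probe did not enter. With 1 probe per gene name, general ciliary and other Spag counts were 0 and 0, all probes 1083 and the general ciliary median 0.06, where fewer probes were tested and the uncalled brightest probes stood for Ift140 and Spag5. With the authors' values the general ciliary count was 3 of 39 (Ift140 and 2 probes of Ift57), where 5.48% of all probes were called, the other Spag count 0 and the general ciliary median 0.08. The other Spag count was 0 with quantile normalization and with the slide as a block. Trend and robust eBayes gave 2 of 39 general ciliary calls, where 6.06% of all probes were called. Slide 1 alone gave 3 of 39, where 5.99% of all probes were, and slide 2 alone gave a general ciliary median of 0.20. Array weights gave 8 general ciliary and 4 other Spag calls and 3928 of all probes (13.1%). The replicate block, for numbers that do not pair the mice, gave 0 other Spag calls, 6 axonemal calls and 922 of all probes, and lost Foxj1 (adjusted p = 0.102), Tekt4 (0.105), Tekt2 (0.15) and Spag5 (0.0922). Leaving out 1 mouse gave 4 to 8 axonemal, 0 to 1 general ciliary, 0 to 1 other Spag and 858 to 1472 calls of all probes, with medians of 0.00 to 0.14 (axonemal) and 0.12 to 0.20 (general ciliary). For the 3 classes' counts of 0, the counts at an unadjusted p below 0.05 in limma were 2 to 9. Over all probes they were 1899 to 5855 in those settings, of 19545 to 41174 tested. A wider reading of the rule, with Dnaic1, Dnaic2 and Dnali1, added 3 probes and no call. A count of 0 or 1 in the general ciliary or other Spag class turns on 1 probe, in the other Spag class not always the same one. The other Spag count was 1 within slide 1 and without BTBR 3. The Spag5 probe called in the main test did not pass limma there (adjusted p = 0.0764 and 0.0684). With 3 mice per strain, a probe that did not pass may still differ.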
